A study of Mus musculus with 9 samples.

Results

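The comparison of Stem with TGF-β asked which gene programs differed, after 72 h, between smooth muscle–derived vascular progenitor cells kept in stem cell conditions and the same kind of cells given TGF-β1 in low serum. It was chosen by its groups, and it holds 6 of the 9 RNA-Seq libraries of the series, 3 per group. Of the 55416 genes listed, 14879 passed a filter on low counts and were tested. The cells, named AdvSca1-SM, are Sca1-expressing progenitors of the arterial adventitia that descend from smooth muscle. They were sorted from the carotid arteries, aortic arch and descending aorta of 8-week-old SM22α-Cre-YFP mice, which were pooled, and in which the promoter of the smooth muscle gene Tagln drives Cre and thereby the YFP label, and were cultured between passages P2 and P6. All groups carried that label and received 0.1% DMSO as vehicle. The stem medium was αMEM-GlutaMAX with 5 ng/mL epidermal growth factor, 1 ng/mL basic fibroblast growth factor and 10% FBS qualified for mesenchymal stem cells. The TGF-β cells were growth arrested for 24 h at 0.1% FBS in that medium and then moved to DMEM with 0.1% FBS and 5 ng/mL TGF-β1. According to the paper the Stem cells were grown in stem medium. The sources used here do not say plainly whether they were growth arrested as well, or at which serum level they spent the 72 h. Basal medium, growth factors, TGF-β1 and, if it stayed at 10%, serum changed together. Their parts in any difference cannot be told apart.

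TGF-β1 binds a pair of receptor kinases that phosphorylate the transcription factors Smad2 and Smad3, and these raise genes of the extracellular matrix, of matrix cross-linking and of the pathway's own feedback. Basic fibroblast growth factor and epidermal growth factor act through receptor tyrosine kinases and the ERK kinases, which raise another set of feedback genes. In the arterial wall, TGF-β1 is known for turning fibroblasts and progenitors into myofibroblasts, which contract and deposit collagen.

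The 6 libraries held between 35686291 and 43194424 counts. Libraries of the same group correlated across genes with a Spearman coefficient of 0.9947 or more, although genes are not independent of each other. The second Stem library stood apart from the other Stem libraries in a few rows: the gene ENSMUSG00000119584, which carried no symbol here, had 139368, 1902250 and 184162 normalized counts in Stem and 988764, 759477 and 585181 in TGF-β, and Lars2 had 4141, 57811 and 4605 normalized counts in Stem and 26331, 22108 and 17434 in TGF-β. Neither row was called, and without the second Stem library Lars2 changed by 2.33 on the log2 scale. Ptprc of leukocytes, Alb of hepatocytes, Epcam of epithelium, Adipoq of adipocytes and Sox10 of Schwann cells, which define other cell types, had means of at most 2.37 normalized counts in both groups. Other members of the marker lists were counted, and some were called higher in TGF-β. Csf1r of macrophages had 34.5, 18.5 and 32.5 normalized counts in Stem and 89.6, 53.8 and 84.9 in TGF-β, and Cd68, also of macrophages, had 7.33, 1.09 and 2.16 normalized counts in Stem and 10.8, 15.2 and 13.7 in TGF-β. Trac of lymphocytes had 1.05, 1.09 and 2.16 normalized counts in Stem and 46.4, 30.4 and 41.0 in TGF-β, and Krt19 of epithelium had 2.09, 7.61 and 7.57 normalized counts in Stem and 25.9, 15.2 and 25.4 in TGF-β. The part of such cells in the results was not tested. The labels describe the RNA source as liver in 1 protocol and as aorta and carotid artery elsewhere, and of the 10 hepatocyte markers 6 had no count in any of the 6 libraries and Ahsg made up most of the rest, with 265, 237 and 277 normalized counts in Stem and 16.2, 12.2 and 10.7 in TGF-β. The summed markers of macrophages, lymphocytes, epithelium, Schwann cells, adipocytes and erythroid cells reached at most 242.8 normalized counts in any library. Together the 10 endothelial markers held 208.6 to 346.5 normalized counts per Stem library and 145.7 to 167.0 per TGF-β library. They did not move as a block, since of the 6 tested 1 was called higher in TGF-β and 3 lower. The mean of Kdr went from 0.721 (Stem) to 26.1 (TGF-β), whereas that of Emcn went from 104 to 8.27. The study describes the 3 libraries of each group as independent replicates, and whether they came from separate isolations of cells is not given in the sources used here.

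Between Stem and TGF-β, 3739 of the 14879 genes tested passed the threshold, which is 25.1% of them. Of these, 1575 genes were higher in TGF-β (10.6%) and 2164 were lower (14.5%). The shares of called members given for gene lists below are to be read beside these. A gene was called when edgeR's quasi-likelihood test gave an adjusted p under 0.05 and the log2 fold change was above 1 or below -1, and "rose" and "fell" below are used only of called genes. To give normalized counts, each library was scaled to the mean effective size of 41184338. The change was between 2- and 4-fold in 2371 of the called genes, between 4- and 16-fold in 1077 and beyond 16-fold in 291. In 143 of the genes that rose, every Stem library was at the detection limit of 3 counts, and in 121 of those that fell every TGF-β library was. The groups did not overlap in 3704 of the called genes and in 11427 of all genes tested. Statements below that groups were apart are to be read beside these numbers. The median log2 fold change over all genes was -0.00275. When libraries were scaled by their total counts instead, that median was -0.122, and 35.4% of the calls were rises in place of 42.1%.

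**Figure D1:**
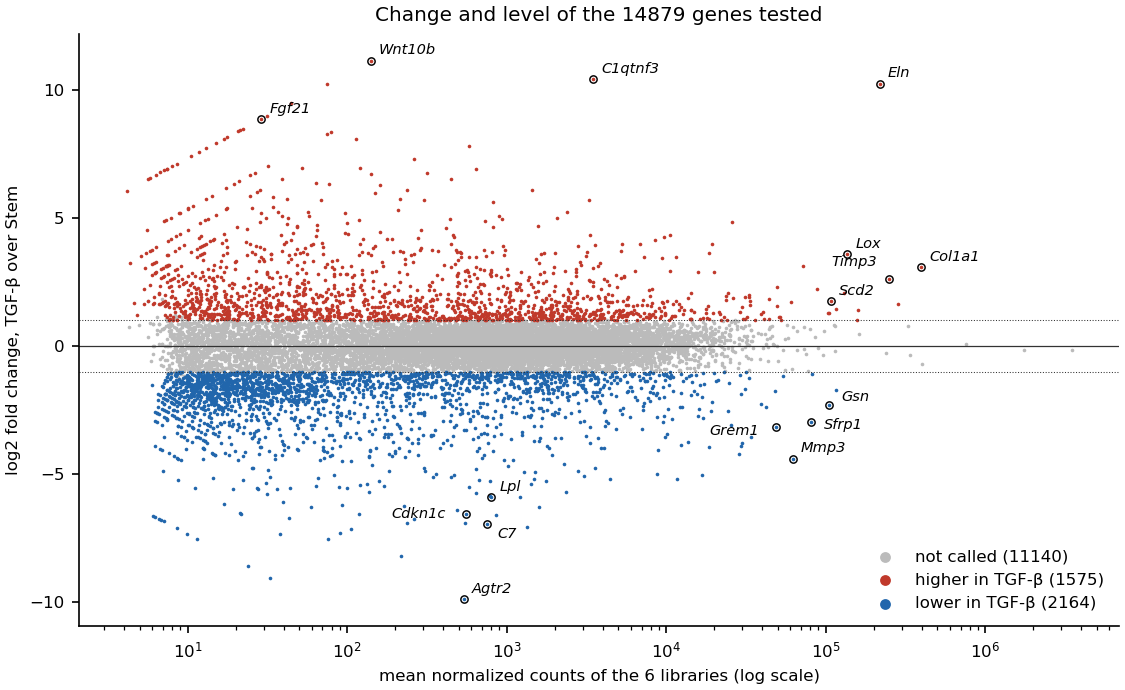
The horizontal axis gives the mean normalized counts of the 6 libraries and the vertical axis the log2 fold change of TGF-β over Stem, 1 point per gene tested. Red points are the 1575 genes called higher and blue points the 2164 called lower, and dotted lines mark log2 fold changes of 1 and -1.

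The most abundant transcripts changed places. Ranked by RPKM, the counts divided by exon length and library size, over the 12829 nuclear protein-coding genes tested, 8 of the 20 highest genes were shared by the groups. In Stem the highest was Mmp3, a matrix metalloproteinase, followed by Gsn, the actin-severing protein gelsolin, and Eef1a1, a translation elongation factor. In TGF-β the highest was Col1a1, a chain of type I collagen, followed by Eef1a1 and Sparc, a collagen-binding matricellular protein. Mmp3 moved from rank 1 to rank 421, from 1590 to 75.8 RPKM. Eln, which encodes tropoelastin, the core of elastic fibers, moved from rank 9851 to rank 4, from 1.08 to 1300 on that scale. Col1a1 moved from 309 to 2620 and Lox, the enzyme that cross-links collagen and elastin, from 105 to 1270. Among secreted proteins, Sfrp1, a Wnt antagonist, moved from 797 to 101, Grem1, a BMP antagonist, from 514 to 58.2, and Cxcl12, a chemokine, from 527 to 158.

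**Figure D2:**
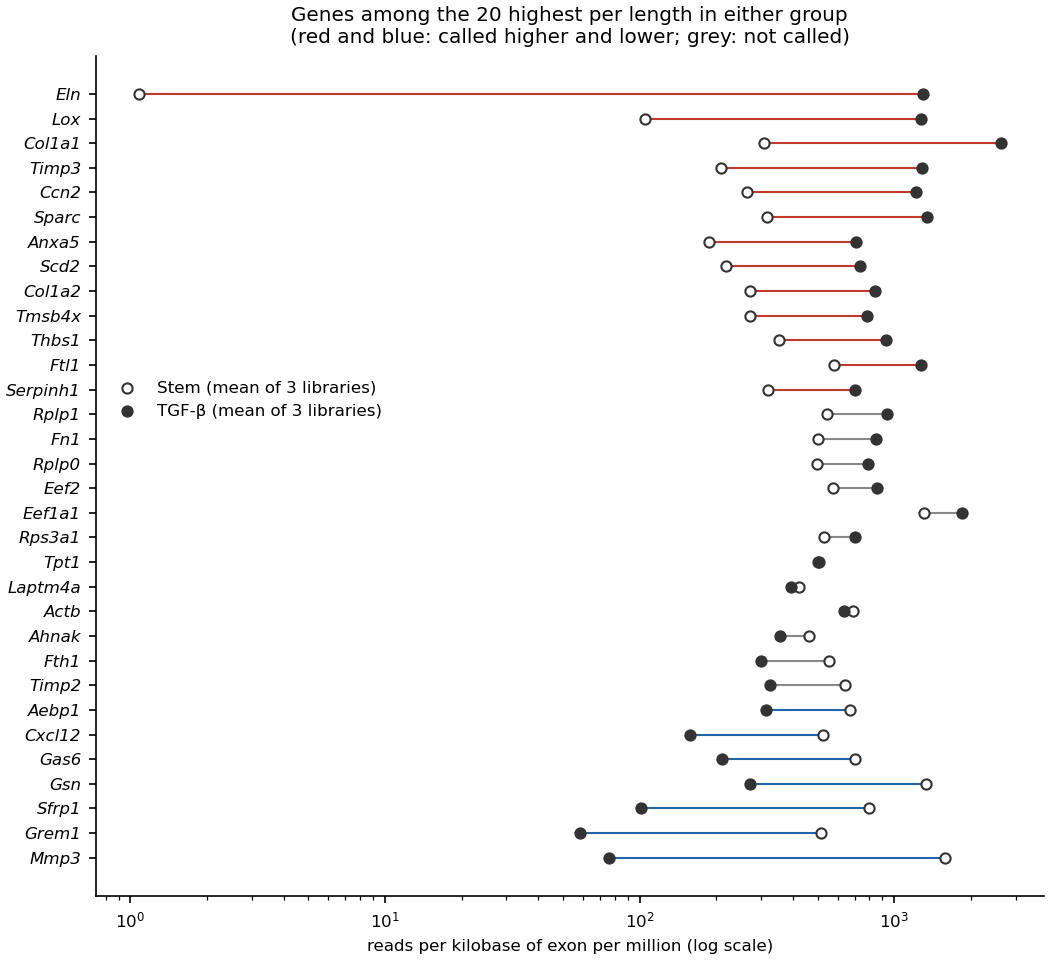
Each line joins the mean level of a gene in Stem (open circle) and in TGF-β (filled circle), in RPKM on a log scale, for the genes among the 20 highest of either group. Eln spans the longest line, from 1.08 to 1300, and Mmp3 the longest in the other direction, from 1590 to 75.8.

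Of the elastic fiber genes tested, elastin changed the most. Eln had 262, 451 and 365 normalized counts in Stem and 414025, 468605 and 419909 in TGF-β. Every TGF-β library lay far above every Stem library, with a log2 fold change of 10.24 ± 0.20 (SE, n = 3 per group; edgeR adjusted p = 8.13e-13). Lox had 17163, 25729 and 19177 normalized counts in Stem and 241886, 257626 and 250920 in TGF-β, and its log2 fold change was 3.60 ± 0.13 (SE). The groups of Lox did not overlap either. Of the 21 elastic fiber genes tested, 9 rose and 5 fell (42.9% and 23.8%), with a median log2 fold change of 0.40. The risers included Fbn1, the fibrillin of the microfibril scaffold, at 58875, 66602 and 61431 normalized counts in Stem and 167518, 171045 and 168136 in TGF-β, and the microfibril-associated gene Mfap4 at 3.97 ± 0.10 on the log2 scale. The fallers were Fbln1, Fbln7 and Efemp1, which are fibulins, with Fbn2 and Mfap2 of the microfibril. Fbln1 had 57177, 54190 and 54520 normalized counts in Stem and 3925, 3577 and 3587 in TGF-β, a log2 fold change of -3.90 ± 0.050 (SE). The scaffold genes of elastic fibers thus went up in part and down in part. The summed share of the whole list, with Eln and Lox in it, was 0.857% of all counts in Stem and 2.72% in TGF-β. Eln alone held a mean of 434180 of the 1152400 summed counts in TGF-β.

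Of the 34 collagen chains tested, 18 rose and 7 fell, which are 52.9% and 20.6% of the list beside 10.6% and 14.5% of all genes, and the median log2 fold change was 1.06. Their sum took 1.31% to 1.51% of all counts in the Stem libraries and 4.52% to 4.81% in the TGF-β libraries. Col1a1 had 77278, 90561 and 82739 normalized counts in Stem and 702840, 732988 and 686626 in TGF-β, without overlap, and a log2 fold change of 3.08 ± 0.064 (SE; edgeR adjusted p = 1.48e-12). The chains of fibrillar collagens I, III and V all passed the threshold upward: Col1a2 changed by 1.63 ± 0.072 on the log2 scale, Col5a2 by 3.13 ± 0.12 and Col3a1, nearest the threshold, by 1.02 ± 0.13. Col3a1 had 85469, 127087 and 100506 normalized counts in Stem and 199137, 232577 and 201328 in TGF-β. Col3a1 fell below the threshold, at 0.89, 0.99, 0.95 and 0.90, without the first Stem library, the third Stem library or the second TGF-β library and under scaling by total counts.

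Collagens of cartilage rose. Col2a1, the main chain of cartilage collagen, had 33.5, 29.3 and 36.8 normalized counts in Stem and 1522, 1630 and 1701 in TGF-β, and Col11a1, its fibril partner, had 2604, 2990 and 2770 normalized counts in Stem and 33934, 34464 and 34088 in TGF-β. Their log2 fold changes were 5.60 ± 0.13 and 3.62 ± 0.059 (SE). Both genes were expressed in every library, and the groups did not overlap. The basement membrane chains Col4a1 and Col4a2 rose by 1.72 and 1.58 on the log2 scale. The fallers were of other kinds, with 3 chains of collagen VI among them. Col6a5 had 2358, 3228 and 2442 normalized counts in Stem and 19.4, 21.3 and 18.6 in TGF-β, Col6a6 had 712, 1251 and 947 normalized counts in Stem and 9.71, 20.3 and 3.91 in TGF-β, and Col6a4 changed by -2.06 ± 0.42, whereas Col6a3, a chain of the same collagen, rose by 2.08 ± 0.059. The collagen VI chains Col6a1 and Col6a2 changed by -0.65 ± 0.048 and -0.41 ± 0.043 and were not called.

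Of the 41 genes of collagen modification and secretion tested, 7 rose and 1 fell (17.1% and 2.44%), with a median of 0.33. The largest rises were in Pcolce2, an enhancer of procollagen cleavage, at 1.71 ± 0.12, and Fkbp10, a collagen chaperone, at 1.35 ± 0.046. Adamts3, a procollagen protease, fell by 1.85. Of the 19 matricellular genes, 8 rose and 4 fell (42.1% and 21.1%). Postn, periostin, had 2401, 2727 and 2258 normalized counts in Stem and 18173, 20382 and 17015 in TGF-β, a log2 fold change of 2.91 ± 0.095 (SE). Sparc had 48967, 48735 and 50824 normalized counts in Stem and 214297, 210599 and 204481 in TGF-β, and Ccn2, connective tissue growth factor, which was listed with the SMAD targets, had 26485, 37352 and 29418 normalized counts in Stem and 146722, 139236 and 146897 in TGF-β. All 3 genes were higher in every TGF-β library than in any Stem library. Fn1, fibronectin, had 247783, 241598 and 235891 normalized counts in Stem and 397848, 430084 and 402222 in TGF-β, also without overlap, and at 0.76 ± 0.052 it stayed under the fold threshold. The tenascins were no part of the rise: Tnxb fell from a mean of 22791 ± 3027 normalized counts in Stem to 619 ± 104 in TGF-β (SD, n = 3), Tnn had 469, 41.3 and 193 normalized counts in Stem and 5.40, 1.01 and 0.976 in TGF-β, and Tnc changed by -0.35 ± 0.086, not called. The Stem libraries of Tnn spread by more than 10-fold among themselves.

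Of the 11 small leucine-rich proteoglycans, which coat collagen fibrils, 7 fell and 2 rose (63.6% and 18.2%), with a median of -1.08. Their summed share of all counts was not lower in TGF-β, at 0.344% in Stem and 0.369% in TGF-β. The largest rise of the list was 1.31 on the log2 scale. Dcn, decorin, had 14148, 20186 and 16281 normalized counts in Stem and 2427, 2764 and 2407 in TGF-β, a log2 fold change of -2.74 ± 0.11 (SE), and Ogn and Lum fell as well. Lum was no longer called without the second Stem library or the first or the third TGF-β library, at -0.89, -0.98 and -0.91. The rise of Aspn rested on overlapping groups, with 495, 128 and 211 normalized counts in Stem and 714, 428 and 638 in TGF-β, and was lost without the second or the third Stem library or the first TGF-β library, at 0.75, 0.92 and 0.94. Of the 16 basement membrane genes, 5 rose and 5 fell (31.2% each). The laminin chains divided: Lama2 rose by 1.58 ± 0.080, while Lama4 changed by -1.62 ± 0.039 and Lamb1 by -1.33 ± 0.041. Ntn4, a netrin that binds laminin, had 106, 127 and 129 normalized counts in Stem and 1752, 1869 and 1715 in TGF-β.

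Among 29 matrix proteases and their inhibitors, 8 rose and 8 fell (27.6% each). Mmp3 had 119150, 117707 and 117621 normalized counts in Stem and 5988, 5453 and 5431 in TGF-β, a log2 fold change of -4.39 ± 0.061 (SE; edgeR adjusted p = 9.75e-14). The aggrecan-cleaving proteases Adamts5, Adamts9 and Adamts15 fell as well, changing by -2.54, -5.20 and -4.88. Timp3, an inhibitor that stays bound to the matrix, had 66185, 74934 and 68678 normalized counts in Stem and 420878, 433208 and 440850 in TGF-β, and Timp1 changed by 2.20 ± 0.054. Neither Mmp3 nor Timp3 overlapped between the groups. Timp2, the inhibitor with the highest RPKM in Stem, changed by -0.98 ± 0.040, just under the fold threshold, and by -1.10 under scaling by total counts, which is past it. Mmp13, a collagenase, rose from a mean of 28.0 ± 11.6 normalized counts in Stem to 193 ± 10.5 in TGF-β (SD, n = 3).

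**Figure D3:**
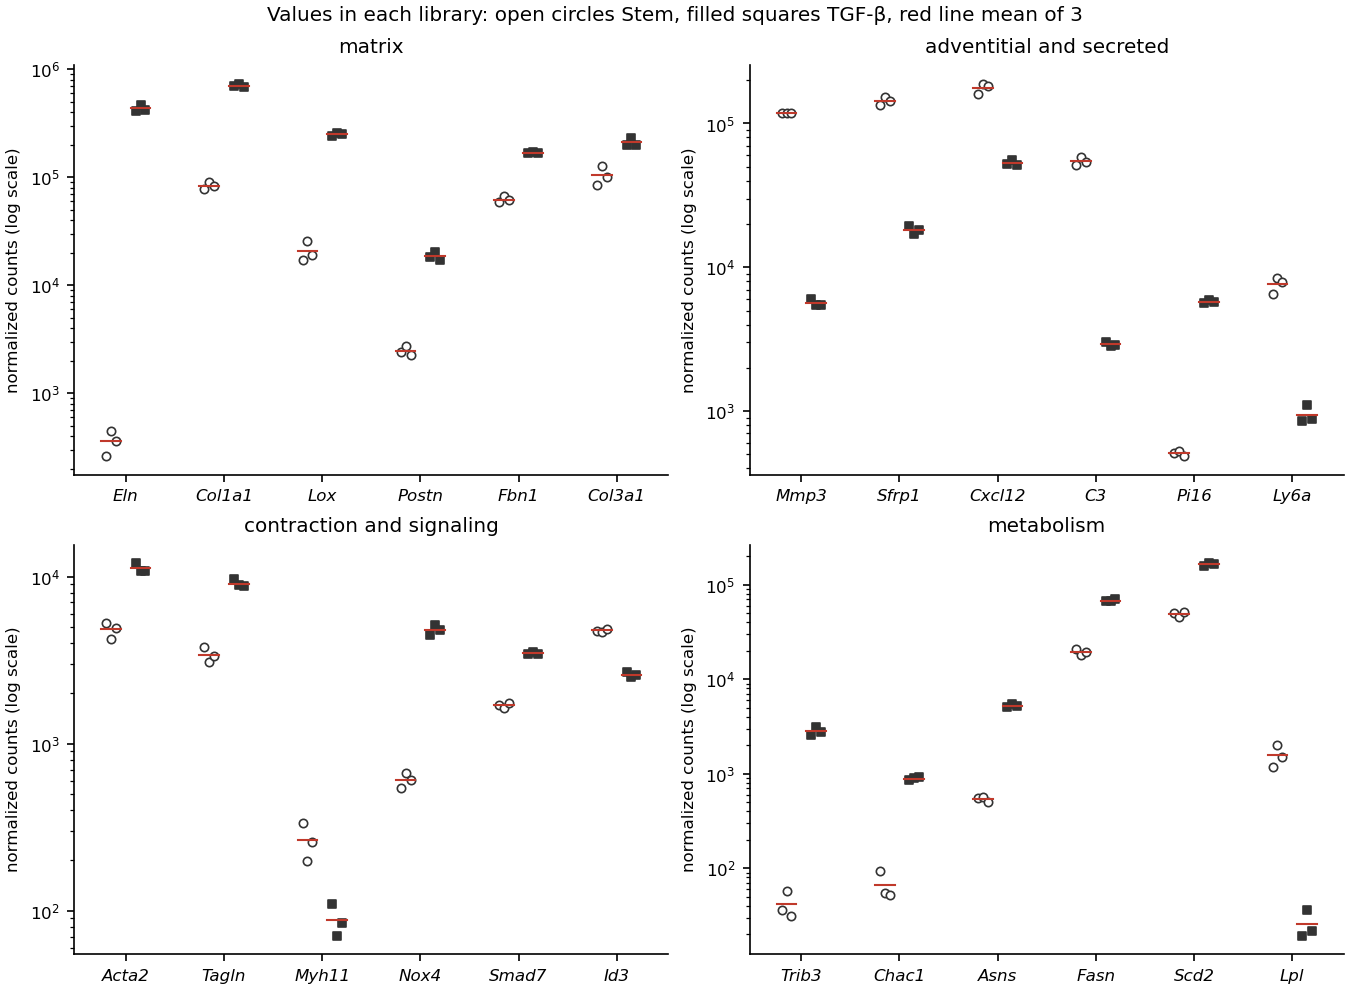
Normalized counts on a log scale in each of the 3 Stem libraries (open circles) and 3 TGF-β libraries (filled squares) for genes of the matrix, of adventitial and secreted proteins, of contraction and signaling, and of metabolism, with the mean as a red line. The groups are apart in each gene shown, with Id3 and Col3a1 among those closest together.

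Genes that Smad proteins are known to raise moved mostly upward. Of 25 tested, 16 rose and 1 fell, 64% beside 10.6% of all genes, with a median log2 fold change of 1.36. The feedback genes Smad7, Skil and Pmepa1 rose by 1.04, 1.58 and 2.90, and under scaling by total counts Smad7, at 0.92, was not called. Nox4, an NADPH oxidase, had 539, 670.4 and 607 normalized counts in Stem and 4464, 5149 and 4818 in TGF-β, a log2 fold change of 2.99 ± 0.081 (SE; edgeR adjusted p = 1.21e-11). Il11, a cytokine, had 27.2, 26.1 and 44.4 normalized counts in Stem and 386, 426 and 429.6 in TGF-β. Both were higher in every TGF-β library. Tgfbi, a matrix protein named for its induction by TGF-β, went the other way with 5011, 6309 and 5687 normalized counts in Stem and 1461, 1947 and 1433 in TGF-β, a log2 fold change of -1.81 ± 0.15 (SE).

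BMP targets went down more often than up, with 6 of 13 lower, 3 higher and a median of -0.89. These are 46.2% lower and 23.1% higher, beside 14.5% and 10.6% of all genes, and with a mean of at least 10 counts required 1 was higher. Id2 had 966, 937 and 1037 normalized counts in Stem and 117, 80.1 and 106 in TGF-β and Atoh8 had 1837, 1492 and 1735 normalized counts in Stem and 180.2, 128 and 157 in TGF-β, and both are transcriptional regulators of the helix-loop-helix family. Their groups were far apart. Id1 and Id4 changed by -2.21 and -3.10, both called, Id3 changed by -0.88 ± 0.039 without being called (-1.004 and called under total counts), and Hey1, which Notch also raises, had 0, 1.09 and 3.25 normalized counts in Stem and 11.9, 13.2 and 12.7 in TGF-β, at least 3.91-fold higher. Among 38 ligands, receptors and antagonists of the TGF-β family, 6 rose and 9 fell, 15.8% and 23.7% beside 10.6% and 14.5% of all genes. The ligand genes Tgfb1 and Tgfb3 rose by 2.02 and 1.72, and Fstl3, an activin antagonist, had 438, 388 and 436 normalized counts in Stem and 3702, 3261 and 3630 in TGF-β. The antagonist Grem1 had 96702, 77827 and 88866 normalized counts in Stem and 10414, 9083 and 10335 in TGF-β, the activin subunit Inhbb had 7853, 5948 and 6802 normalized counts in Stem and 259, 243 and 265 in TGF-β, and the ligand Gdf10 had 3579, 3084 and 3582 normalized counts in Stem and 115, 66.9 and 86.9 in TGF-β. These last 3 were lower in every TGF-β library. Of the signal transducers, Smad3 changed by -1.61 ± 0.053 and the coreceptor Tgfbr3 by -3.88 ± 0.056, both called, and Tgfbr1 and Smad4 by 0.098 ± 0.053 and -0.19 ± 0.062, not called.

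Targets of the ERK pathway were lower in TGF-β in 11 of 27 genes (40.7%) and higher in 4 (14.8%), with a median of -0.62. The feedback inhibitor Spry2 had 7092, 7444 and 7751 normalized counts in Stem and 854, 870.1 and 818 in TGF-β, a log2 fold change of -3.13 ± 0.049 (SE; edgeR adjusted p = 2.03e-13). The ETS factor Etv1 had 2701, 2757 and 2792 normalized counts in Stem and 238, 185 and 217 in TGF-β, and the phosphatase gene Dusp6 fell by 2.02. None of these overlapped between groups. Hbegf, an epidermal growth factor receptor ligand, and Lif, a cytokine, rose from a mean of 158 ± 2.62 normalized counts in Stem to 932 ± 18.0 in TGF-β (SD, n = 3) and a mean of 46.4 ± 5.10 normalized counts in Stem to 633 ± 23.2 in TGF-β (SD, n = 3). Of 33 growth factor receptors and ligands, 13 fell and 8 rose (39.4% and 24.2%). The receptors Pdgfra, Egfr, Fgfr1 and Fgfr2 all fell, changing by -3.07, -2.20, -1.14 and -2.04, while Pdgfrb, the other PDGF receptor, rose by 1.02 ± 0.051, and by 0.90 and without a call under total counts. Hgf, hepatocyte growth factor, had 8282, 8895 and 9188 normalized counts in Stem and 1063, 891 and 852 in TGF-β, and Fgf10 had 6920, 6420 and 7327 normalized counts in Stem and 572, 489 and 641 in TGF-β. Pdgfc, a ligand of Pdgfra, moved against its receptor with 235, 287 and 256 normalized counts in Stem and 3065, 3328 and 3169 in TGF-β. Of 19 FoxO targets and serum withdrawal genes, 9 fell and 1 rose (47.4% and 5.26%). Txnip, a brake on glucose uptake, had 8744, 12670 and 10729 normalized counts in Stem and 2485, 2438 and 2443 in TGF-β, and Klf15 had 1033, 1254 and 1034 normalized counts in Stem and 173, 234 and 167 in TGF-β.

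Contractile genes did not move as 1 block: of 26 tested, 5 rose and 4 fell, 19.2% and 15.4% beside 10.6% and 14.5% of all genes, and the median was -0.17. Acta2, smooth muscle α-actin, had 5287, 4257 and 4955 normalized counts in Stem and 12040, 10862 and 10744 in TGF-β, a log2 fold change of 1.21 ± 0.079 (SE; edgeR adjusted p = 3.31e-08). Tagln, whose promoter drives Cre in these mice, had 3798, 3071 and 3337 normalized counts in Stem and 9653, 8866 and 8751 in TGF-β. Both were higher in every TGF-β library. Myh11, the smooth muscle myosin heavy chain, had 335, 199 and 256 normalized counts in Stem and 110.1, 71.0 and 84.0 in TGF-β, and Mylk, the myosin light chain kinase, had 2747, 2839 and 3098 normalized counts in Stem and 496, 495 and 515 in TGF-β. Both were lower in every TGF-β library. Cnn1, calponin, had overlapping groups with 449, 309.7 and 375 normalized counts in Stem and 365, 327 and 313 in TGF-β. Myocd, a coactivator of contractile genes, had 0, 0 and 1.08 normalized counts in Stem and 22.7, 21.3 and 15.6 in TGF-β, at least 6.18-fold higher, and its relative Mrtfa changed by -0.96 ± 0.057, just under the fold threshold, and by -1.01 without the second Stem library, which is past it.

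Integrins and focal adhesion genes rose in 9 of 34 cases (26.5%) and fell in 2 (5.88%). Itga4, which binds fibronectin and Vcam1, had 12.6, 10.9 and 7.57 normalized counts in Stem and 1277, 1287 and 1256 in TGF-β, a log2 fold change of 6.92 ± 0.14 (SE). Itga6, a laminin-binding subunit, rose from a mean of 27.9 ± 2.18 normalized counts in Stem to 359 ± 40.8 in TGF-β (SD, n = 3). The subunits Itga5, Itgb3 and Itgb5, which bind fibronectin and vitronectin, rose by 1.38, 2.42 and 1.92. Itga1, a collagen-binding subunit, had 6202, 6054 and 6350 normalized counts in Stem and 1758, 1573 and 1647 in TGF-β, and the adaptor genes Tln1, Pxn and Zyx changed by -0.51 ± 0.039, -0.33 ± 0.064 and -0.26 ± 0.055, not called.

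Of the 25 progenitor and adventitial fibroblast markers, 9 fell, 5 rose and 11 did not pass. Thus 36% of the list fell and 20% rose, beside 14.5% and 10.6% of all genes. Ly6a, which encodes Sca1, had 6557, 8441 and 7908 normalized counts in Stem and 855, 1094 and 875 in TGF-β, a log2 fold change of -3.02 ± 0.12 (SE; edgeR adjusted p = 2.44e-10). Cd34 had 336, 435 and 366 normalized counts in Stem and 18.3, 27.4 and 16.6 in TGF-β, Pdgfra had 42748, 48433 and 45791 normalized counts in Stem and 5688, 5132 and 5496 in TGF-β, and Scara5 had 834, 1459 and 1102 normalized counts in Stem and 76.6, 108 and 92.8 in TGF-β. For these 4 genes the TGF-β libraries lay below all Stem libraries. In bulk RNA, fewer cells of a type and less RNA per cell cannot be told apart. Clec3b, tetranectin, had 926, 1226 and 1090 normalized counts in Stem and 8.63, 11.2 and 6.83 in TGF-β. Pi16, which marks adventitial fibroblasts, moved upward with 508, 530.3 and 485 normalized counts in Stem and 5650, 5950 and 5713 in TGF-β, and Ackr3, a scavenging receptor for Cxcl12, had 1649, 2082 and 1779 normalized counts in Stem and 6498, 6183 and 6420 in TGF-β. Klf4 had 3799, 3917 and 3861 normalized counts in Stem and 6215, 6419 and 6453 in TGF-β, apart but below the fold threshold, and Gli1 had 2.09, 1.09 and 0 normalized counts in Stem and 10.8, 12.2 and 11.7 in TGF-β, at least 3.6-fold higher against a Stem group at the detection limit. A list of 8 myofibroblast genes gave 6 rises (75.0%) and 0 falls. Fn1 and Mrtfa did not pass. Mrtfa was lower in TGF-β, at -0.96 ± 0.057, and was called lower under total counts (-1.08) and without the second Stem library (-1.01). By qPCR, the paper reported Mrtfa as upregulated with TGF-β1. The study names all members of the list but Tagln for such cells, so the direction of the list is not independent evidence.

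Cartilage and tendon genes rose in 10 of 20 cases (50.0%) and fell in 3 (15.0%). Scx, the transcription factor of tendon cells, changed by 4.51 ± 0.27, and Matn3, a cartilage matrix protein, by 5.19 ± 0.30. Acan, the proteoglycan aggrecan, had 1.05, 0 and 0 normalized counts in Stem and 49.6, 47.7 and 49.8 in TGF-β, at least 15.2-fold higher. Sox9, the main cartilage transcription factor, changed by 0.12 ± 0.061 and was not called. Prg4, lubricin, moved downward with 834, 761 and 827 normalized counts in Stem and 133, 164 and 152 in TGF-β. The more abundant Fmod had 10122, 10494 and 10933 normalized counts in Stem and 3609, 3225 and 3214 in TGF-β. Matn2 had 10135, 10540 and 9823 in Stem and 4226, 4307 and 4141 in TGF-β, and both fell. Comp, Matn4, Mkx and Tnmd, at 0.21, 0.26, 0.53 and 0.43, and Egr1 and Sox5, at -0.69 and -0.80, were not called. Adipogenic genes fell in 8 of 20 cases (40.0%) and rose in 3 (15.0%). Lpl, lipoprotein lipase, had 1168, 2019 and 1504 normalized counts in Stem and 19.4, 36.5 and 21.5 in TGF-β, a log2 fold change of -5.91 ± 0.26 (SE). Angptl4, an inhibitor of that enzyme, had 1447, 1335 and 1308 normalized counts in Stem and 73.4, 74.0 and 67.4 in TGF-β, and Apoe fell by 3.93. Pparg and Cebpa, transcription factors of adipocytes, changed by -0.34 ± 0.22 and -0.33 ± 0.068, not called. The lipid droplet protein gene Plin2 rose, with 1499, 1667 and 1483 normalized counts in Stem and 3944, 4608 and 4198 in TGF-β.

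Wnt pathway genes fell in 12 of 31 cases and rose in 7, 38.7% and 22.6% beside 14.5% and 10.6% of all genes. Among the secreted antagonists Sfrp1 had 133891, 153164 and 143435 normalized counts in Stem and 19314, 17126 and 18212 in TGF-β, Sfrp2 had 2269, 3339 and 2746 normalized counts in Stem and 79.9, 58.8 and 59.6 in TGF-β, and Sfrp4 had 6266, 6342 and 6071 normalized counts in Stem and 417, 496 and 452 in TGF-β. Dkk2 and Dkk3 fell as well, changing by -2.08 ± 0.23 and -1.89 ± 0.043, and Sfrp5, Dkk1, Wif1 and Notum did not pass the filter on low counts. The summed counts of the list were lower in TGF-β, at 0.291 of the Stem level. Sfrp1 alone held a mean of 143496 of the 229840 summed counts in Stem. The median log2 fold change of the list was -0.40, with 14 genes higher and 17 lower, called or not. Axin2, a target of canonical Wnt signaling, changed by -1.83 ± 0.20. Ligands went both ways. Wnt10b had 0 normalized counts in all 3 Stem libraries and 233, 323 and 287 in TGF-β, which is at least 87.4-fold higher, and Wnt2 had 11.5, 27.2 and 17.3 normalized counts in Stem and 238, 227 and 188 in TGF-β. Wnt5b and Wnt4 fell, changing by -1.86 and -1.84.

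In the Notch pathway, the receptor Notch4 had 5.23, 6.52 and 8.65 normalized counts in Stem and 472, 437 and 487 in TGF-β, the effector Heyl had 4.19, 1.09 and 4.33 normalized counts in Stem and 531, 523 and 509.6 in TGF-β, and Hes1 rose by 2.74 ± 0.090. The effector genes Hey1 and Heyl and the ligand genes Jag1 and Jag2 were all called higher, while the ligand Dll1 had 186, 153 and 187 normalized counts in Stem and 42.1, 24.3 and 24.4 in TGF-β. Notch1 and Notch2 changed by -0.49 ± 0.083 and -0.11 ± 0.034, not called. In the Hedgehog pathway, Gas1, a coreceptor, had 40774, 22145 and 34183 normalized counts in Stem and 1312, 624 and 1041 in TGF-β, and the transcription factors Gli2 and Gli3 fell, changing by -1.89 and -1.18. Over both pathways 8 of 20 genes rose and 4 fell, 40% and 20% beside 10.6% and 14.5% of all genes. With a mean of at least 10 counts required, the rises were 5. Of 28 Hox genes tested, 1 was called, 3.57% beside 25.1% of all genes. It was Hoxb9, with 491, 365 and 425 normalized counts in Stem and 902, 883 and 893 in TGF-β. Without the second Stem library its change was 0.97 and not called.

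Among 16 IGF genes, 3 rose and 5 fell (18.8% and 31.2%). Igf1 had 2009, 1110 and 1639 normalized counts in Stem and 17602, 16787 and 16940 in TGF-β, and Igf2 changed by -5.04 ± 0.35. The binding proteins divided as well: Igfbp4 had 58488, 65887 and 64826 normalized counts in Stem and 5469, 5566 and 4937 in TGF-β, Igfbp3 had 3510, 3056 and 3748 normalized counts in Stem and 495, 698 and 528 in TGF-β, and Igfbp2 had 347, 387 and 308 normalized counts in Stem and 2040, 1802 and 1934 in TGF-β. Every one of these groups was apart from the other.

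Complement genes were mostly lower. Of 17 complement genes, 12 fell and 1 rose, 70.6% beside 14.5% of all genes, and their summed share of all counts was between 0.386% and 0.414% in Stem and between 0.0592% and 0.0623% in TGF-β. C3, the central component, had 51356, 58286 and 54213 normalized counts in Stem and 3028, 2821 and 2891 in TGF-β, a log2 fold change of -4.23 ± 0.059 (SE; edgeR adjusted p = 9.59e-14). C7, part of the membrane attack complex, had 1456, 1514 and 1476 normalized counts in Stem and 10.8, 11.2 and 13.7 in TGF-β. The riser was C3ar1, the receptor for a fragment of C3, which changed by 2.41 ± 0.27. Of 26 chemokine and cytokine genes, 11 fell and 4 rose, 42.3% and 15.4%. Cxcl12, which retains CXCR4-bearing cells, had 160815, 188627 and 182484 normalized counts in Stem and 52449, 56149 and 51444 in TGF-β. The neutrophil-attracting chemokines Cxcl1 and Cxcl5 had 1488, 941 and 1314 normalized counts in Stem and 45.3, 47.7 and 40.0 in TGF-β, and 3846, 2187 and 3339 normalized counts in Stem and 52.9, 35.5 and 32.2 in TGF-β, respectively. Ccl2 and Ccl7, which attract monocytes, fell, changing by -3.07 and -3.18. The rises were in Lif, with 51.3, 46.7 and 41.1 normalized counts in Stem and 609.7, 656 and 633 in TGF-β, in Il11, in Il6, which changed by 3.47 ± 0.12, and in Cxcl14, at 1.01 ± 0.090. The call of Cxcl14 was lost without the first Stem library (0.98) or the first TGF-β library (0.97).

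Of 37 interferon-stimulated and antigen presentation genes, 8 fell and 3 rose, 21.6% and 8.11% beside 14.5% and 10.6% of all genes. The median was -0.064. Psmb8, an immunoproteasome subunit, had 258, 393 and 342 normalized counts in Stem and 21.6, 21.3 and 40.0 in TGF-β, and Ifi204 had 545, 930.1 and 728 normalized counts in Stem and 136, 166 and 150.4 in TGF-β. The Stem libraries differed among themselves here: Bst2 had 689, 1187 and 1292 normalized counts in Stem and 2214, 2450 and 2453 in TGF-β. Without the first Stem library 0 of the 37 genes rose, Bst2 changing by 0.94, and without the second 6 did.

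Of the 41 lists, the genes of amino acid supply had the highest median. Of 34 genes that ATF4 controls or that make or import amino acids, 26 rose and 2 fell, 76.5% higher beside 10.6% of all genes, with a median log2 fold change of 2.26. ATF4 is a transcription factor whose translation increases when amino acids run short or the endoplasmic reticulum is stressed, and it binds a composite element with C/EBP proteins. The letters of that element, TGATGNAA on either strand, were looked for in promoter windows of RefSeq, GRCm38.p6, from 250 bases before to 50 after each gene's start. Of the 34 genes 28 had a window, and 9 of these held the letters (32.1%), beside 290 of the 10461 tested genes with a window (2.77%) and 1304 of all 32851 windows (3.97%). Among genes called higher 6.32% held them, and 5.61% of those outside the list. Known control by ATF4 was one ground for listing a gene, so a higher share in the list is not independent of how the list was made. All 9 were among the 22 genes with a window that rose. The stretches of 4 of them are shown, an enzyme, a transporter, a proline synthesis gene and a hormone that hold the element upstream of the start. Its letters are in capitals, and the sequences run 5′ to 3′ on the gene's strand. They lie at chr2:119351013-119351092 (plus strand) for Chac1, chr3:50443617-50443715 (minus strand) for Slc7a11, chr11:120643808-120643887 (minus strand) for Pycr1 and chr7:45615586-45615665 (minus strand) for Fgf21.
Chac1: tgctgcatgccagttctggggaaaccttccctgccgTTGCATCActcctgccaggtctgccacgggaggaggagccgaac
Slc7a11: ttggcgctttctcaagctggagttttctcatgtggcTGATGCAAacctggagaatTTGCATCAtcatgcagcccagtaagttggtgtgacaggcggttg
Pycr1: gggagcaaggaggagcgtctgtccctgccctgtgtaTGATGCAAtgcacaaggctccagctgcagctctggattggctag
Fgf21: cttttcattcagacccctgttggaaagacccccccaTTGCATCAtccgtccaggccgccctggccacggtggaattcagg
A match is a run of letters in these windows and no evidence of binding. Chac1, a glutathione-degrading enzyme, carries the element 186 bases before its start and had 94.2, 54.3 and 51.9 normalized counts in Stem and 860.0, 892 and 917 in TGF-β. Slc7a11, the cystine importer, has 2 copies on opposite strands and had 158, 142 and 163 normalized counts in Stem and 1010, 1115 and 1133 in TGF-β. Pycr1, an enzyme of proline synthesis, had 109.9, 156 and 120.1 normalized counts in Stem and 955, 1082 and 949 in TGF-β, and Fgf21, a secreted stress hormone, had 0 normalized counts in all 3 Stem libraries and 50.7, 63.9 and 58.6 in TGF-β, at least 17.9-fold higher. Each of the 4 was higher in every TGF-β library than in any Stem library.

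The synthesis genes of single amino acids rose alongside. Asns, asparagine synthetase, had 554, 573 and 507 normalized counts in Stem and 5089, 5434 and 5204 in TGF-β, a log2 fold change of 3.27 ± 0.059 (SE). Phgdh and Psph, which make serine, rose by 2.29 and 2.28, whereas Psat1, the enzyme between them, changed by -0.091 ± 0.064 and was not called. Mthfd2 and Shmt2 of mitochondrial one-carbon metabolism rose by 3.92 and 2.23. Trib3, a pseudokinase that ATF4 raises, had 36.6, 57.6 and 31.4 normalized counts in Stem and 2551, 3113 and 2801 in TGF-β, and Slc7a3, a cationic amino acid transporter, had 4.19, 2.17 and 1.08 normalized counts in Stem and 262, 297 and 274 in TGF-β. Atf4 itself rose by 1.85 ± 0.096, and Ddit3, which encodes CHOP, by 2.68 ± 0.069. The endoplasmic reticulum chaperone genes Hspa5 and Hsp90b1 changed by 0.30 ± 0.090 and 0.054 ± 0.066, not called. The exceptions were Slc38a2, a neutral amino acid transporter, with 47651, 45986 and 48414 normalized counts in Stem and 15535, 14028 and 15033 in TGF-β, and Cbs at -1.17 ± 0.23. Cbs was no longer called without the second Stem library (-0.95) or without the third TGF-β library (-0.99).

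Lipid synthesis genes rose as groups. Of 27 genes of cholesterol synthesis and uptake, 17 rose and 0 fell, 63% beside 10.6%, with a median of 1.10. Of 18 fatty acid synthesis genes, 12 rose and 0 fell, 66.7%, with a median of 1.20. Cells raise both sets through the SREBP transcription factors when sterols and lipids are scarce. Scd2, a desaturase, had 50336, 46221 and 51150 normalized counts in Stem and 160224, 169823 and 164851 in TGF-β, Fasn, fatty acid synthase, had 20760, 17996 and 19270 normalized counts in Stem and 67242, 67326 and 70217 in TGF-β, and Scd1 had 13916, 12220 and 13560 normalized counts in Stem and 49509, 55740 and 53165 in TGF-β. All of these were apart between the groups. The regulators Srebf2 and Srebf1 changed by 0.16 ± 0.034 and 0.62 ± 0.034, not called, as did Abca1, a cholesterol exporter, at -0.47 ± 0.063.

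Of 31 glycolysis and hypoxia genes, 10 rose and 1 fell (32.3% and 3.23%). Slc16a3, a lactate exporter, had 20.9, 16.3 and 29.2 normalized counts in Stem and 207, 341 and 229 in TGF-β, Hk2 rose by 1.86 ± 0.052, and Vegfa had 988, 825 and 966 normalized counts in Stem and 5310, 5703 and 5759 in TGF-β. Gapdh, often used as a reference gene, had 9096, 7820 and 8723 normalized counts in Stem and 20392, 22275 and 20933 in TGF-β, a log2 fold change of 1.31 ± 0.056 (SE; edgeR adjusted p = 6.26e-10). Of the 15 reference genes checked, Gapdh and Tfrc, the transferrin receptor, were called. Actb, Ppia and Tbp changed by -0.12 ± 0.040, 0.52 ± 0.041 and -0.45 ± 0.069 and were not. Adm, adrenomedullin, a hypoxia target, went the other way with 5239, 6477 and 6053 normalized counts in Stem and 174, 194 and 154 in TGF-β, and Slc2a1, the glucose transporter GLUT1, changed by -0.95 ± 0.11, not called, and by -1.08 without the second Stem library, which was called.

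Among 32 NRF2, glutathione and redox genes, 8 rose and 2 fell (25.0% and 6.25%). Hmox1, heme oxygenase, had 2564, 2179 and 2436 normalized counts in Stem and 8365, 9981 and 8963 in TGF-β, and Nqo1 changed by 1.88 ± 0.075. The glutathione transferases Gstm1 and Gstt1 fell, with 4983, 5091 and 5256 normalized counts in Stem and 657, 642 and 652 in TGF-β for Gstm1 and 1182, 1405 and 1224 normalized counts in Stem and 178, 198 and 183 in TGF-β for Gstt1. Gene families such as the glutathione transferases share sequence, so reads may be split between members. Of 34 lysosome and autophagy genes, 7 rose and 1 fell (20.6% and 2.94%), and under scaling by total counts 3 rose. Sqstm1, the autophagy receptor p62, had 17387, 15929 and 16560 normalized counts in Stem and 47135, 54131 and 48676 in TGF-β, and Ctsd, cathepsin D, had 22974, 23375 and 22106 normalized counts in Stem and 56806, 58831 and 56822 in TGF-β. Gpnmb, a lysosome-associated membrane glycoprotein, had 11157, 14022 and 11550 normalized counts in Stem and 3033, 3078 and 2989 in TGF-β.

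Genes of cell division were not uniformly lower in the low-serum TGF-β cells. Of 40 DNA replication genes, 4 rose and 3 fell, 10% and 7.5% beside 10.6% and 14.5% of all genes, with a median of 0.10. Of 36 mitosis genes 11 rose and 0 fell, 30.6% higher, with a median of 0.70. Under scaling by total counts 2 of the replication genes and 7 of the mitosis genes rose. Levels were low in both groups: the 36 mitosis genes summed to between 6633 and 7228 normalized counts in Stem and between 7803 and 8577 in TGF-β. Ccna2, cyclin A, had 48.2, 94.5 and 69.2 normalized counts in Stem and 167, 155 and 174 in TGF-β, and Rrm2, a subunit of ribonucleotide reductase, had 228, 293 and 275 normalized counts in Stem and 878, 932 and 942 in TGF-β. Mki67, the proliferation marker Ki-67, changed by 0.67 ± 0.076, not called. Gins4, a replication factor, had 1411, 1372 and 1476 normalized counts in Stem and 499, 488 and 513 in TGF-β. Replication-dependent histone genes were called in 6 of 49 cases, 2 higher (4.08%) and 4 lower (8.16%), and these genes have near-identical copies.

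The inhibitors of cyclin-dependent kinases moved apart. Cdkn1c, which encodes p57, had 1070, 1128 and 1110 normalized counts in Stem and 20.5, 7.10 and 7.81 in TGF-β, a log2 fold change of -6.56 ± 0.19 (SE; edgeR adjusted p = 1.88e-11). Cdkn1a, p21, and Cdkn2b, p15, rose by 1.96 and 1.36, and Cdkn1b, p27, changed by -0.79 ± 0.039 without being called. Pmaip1, which encodes the death-promoting protein NOXA, had 108, 151 and 123 normalized counts in Stem and 3706, 4239 and 4141 in TGF-β, and Gadd45b, a stress-response gene, had 163, 159 and 172 normalized counts in Stem and 1167, 1299 and 1343 in TGF-β. Over the 24 CDK inhibitors and p53 targets, 7 rose and 1 fell (29.2% and 4.17%).

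All 78 cytosolic ribosomal protein genes had a log2 fold change above 0, between 0.13 and 1.05 with a median of 0.43, and 1 of them, Rpl41, was called. Their share of all counts was 1.98% to 2.05% in Stem and 2.50% to 2.64% in TGF-β. Under scaling by total counts the median of all genes moved by -0.12 and 0 of the 78 were called. Of the 12 mitochondrially encoded protein genes 0 were called, in edgeR and in DESeq2. Among 29 genes of the BAF chromatin remodeling complex and of bromodomain proteins, 3.45% were called, beside 25.1% of all genes. The called gene was Smarcd3, with 342, 299 and 307 normalized counts in Stem and 671, 638 and 634 in TGF-β. Without the second Stem library its log2 fold change of 0.9992 was no longer called. Smarca4, which encodes Brg1, had 4460, 3854 and 4211 normalized counts in Stem and 5162, 5101 and 5059 in TGF-β, and Smarca2, its alternative ATPase, had 7801, 6806 and 7665 normalized counts in Stem and 4562, 4563 and 4415 in TGF-β. Neither pair of groups overlapped, as in 11427 of the 14879 genes tested. Both changes were under the fold threshold, at 0.29 ± 0.048 and -0.72 ± 0.054 (SE). Of 19 circadian clock genes, 4 rose and 3 fell, 21.1% and 15.8% beside 10.6% and 14.5% of all genes. Among them was Bhlhe40, a transcriptional repressor, with 1174, 1144 and 1126 normalized counts in Stem and 6854, 7134 and 6916 in TGF-β. Cry2 had 1355, 1143 and 1243 normalized counts in Stem and 609.7, 529 and 589 in TGF-β.

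**Figure D4:**
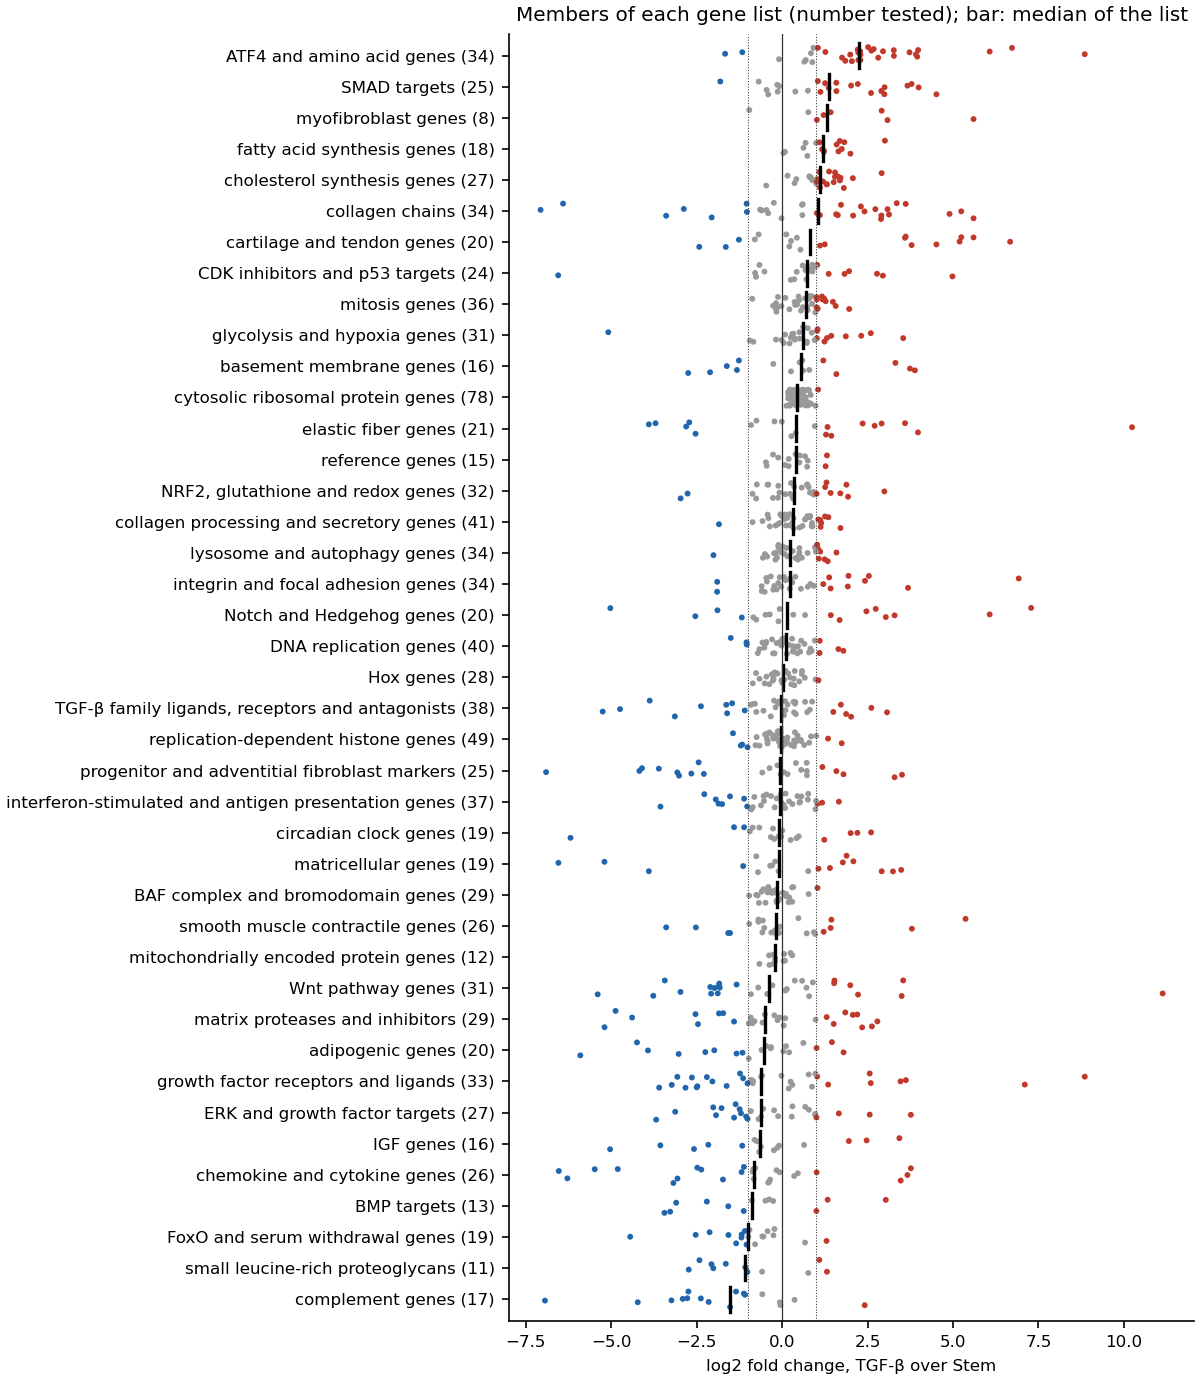
Each point is a tested member of a gene list, placed by its log2 fold change of TGF-β over Stem, in red where called higher, blue where called lower and grey where not called, and the black bar is the median of the list. Lists are ordered by median, from ATF4 and amino acid genes at 2.26 down to complement genes at -1.52.

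Several large changes lay outside these lists. C1qtnf3, a secreted protein of the C1q and TNF family, had 4.19, 4.35 and 6.49 normalized counts in Stem and 6894, 7146 and 6856 in TGF-β, a log2 fold change of 10.41 ± 0.11 (SE; edgeR adjusted p = 2.47e-14). Crabp2, a retinoic acid carrier, had 4.19, 7.61 and 3.25 normalized counts in Stem and 979, 1381 and 1093 in TGF-β, and Dsp, the desmosome protein desmoplakin, had 10.5, 9.78 and 8.65 normalized counts in Stem and 873, 823 and 968 in TGF-β. Atp2a3, a calcium pump of the endoplasmic reticulum, had 1.05, 1.09 and 0 normalized counts in Stem and 241, 230.2 and 205 in TGF-β, at least 70.1-fold higher. In the other direction Agtr2, the angiotensin II type 2 receptor, had 931, 1126 and 1174 normalized counts in Stem and 1.08, 1.01 and 0.976 in TGF-β, at least 351-fold lower in TGF-β. Ephb1, an ephrin receptor, had 587, 253 and 459 normalized counts in Stem and 0, 1.01 and 2.93 in TGF-β, at least 141-fold lower. Ackr4, a scavenging chemokine receptor, had 441, 415 and 552 normalized counts in Stem and 6.47, 3.04 and 1.95 in TGF-β. For each of these 7 genes the groups were far apart. Gsn, an actin-severing protein from the list of adventitial markers, had 171412, 180856 and 167184 normalized counts in Stem and 36429, 33449 and 36135 in TGF-β, Aebp1, a collagen-binding matrix protein, had 113664, 111709 and 111555 normalized counts in Stem and 53331, 51959 and 51444 in TGF-β, and Gas6, a ligand of TAM receptors, had 74031, 74002 and 72853 normalized counts in Stem and 23576, 21291 and 21117 in TGF-β. Slc5a3, a myo-inositol importer that responds to osmolarity, had 75424, 51914 and 67585 normalized counts in Stem and 16059, 9305 and 14837 in TGF-β. All 4 were lower in every TGF-β library.

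The excess of falls over rises lay outside protein-coding genes. Among 12841 protein-coding genes 1398 rose and 1334 fell, 10.9% and 10.4%. Among 696 loci that the annotation lists as TEC, a class that awaits evidence of being genes, 10 rose and 522 fell (75.0%), with a median log2 fold change of -1.56. Among 78 sense intronic transcripts, which lie in introns of other genes, 0 rose and 67 fell (85.9%), with a median of -1.69. The TEC loci summed to 35382, 33254 and 33452 normalized counts in Stem and to 18737, 17766 and 17483 in TGF-β, and the sense intronic ones to 5843, 5713 and 5687 and to 3193, 3019 and 3087. The nuclear RNA Malat1 had 596032, 405114 and 495726 normalized counts in Stem and 338411, 289366 and 296674 in TGF-β, and Kcnq1ot1, a long RNA that overlaps its neighbor Kcnq1, had 1754, 1536 and 1616 normalized counts in Stem and 679.8, 679 and 694 in TGF-β. Kcnq1ot1 was called lower, and Malat1, at -0.70 ± 0.14 (SE), was not called. The part of unspliced RNA in these values was not tested. Annotation classes were compared after the calls were seen.

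**Figure D5:**
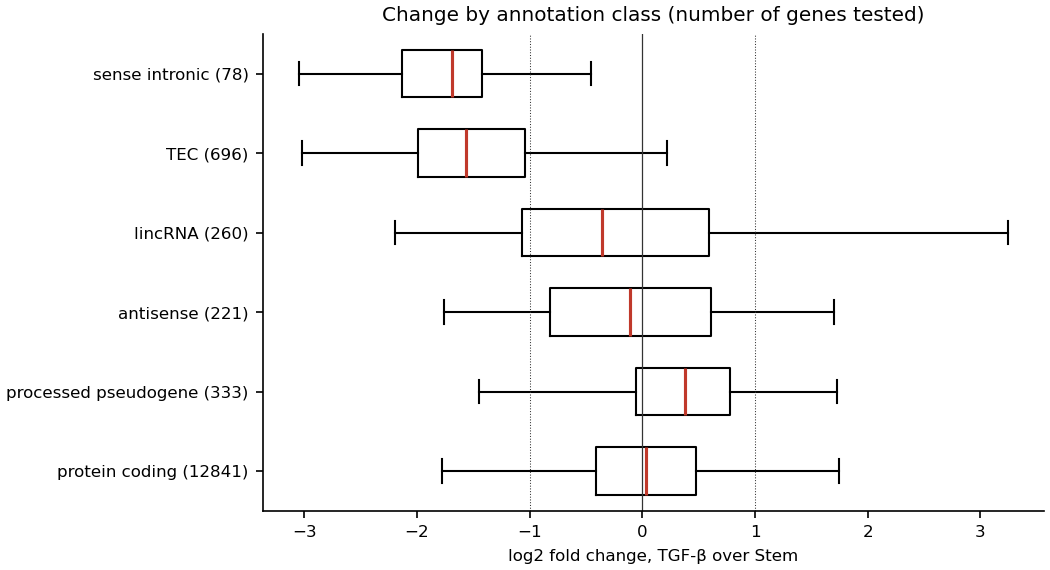
Boxes give the quartiles and the red line the median of the log2 fold change of TGF-β over Stem within an annotation class, with whiskers at the 5th and 95th percentiles and the number of genes tested in parentheses. The boxes of TEC and sense intronic loci lie below -1, and that of protein-coding genes is centered near 0.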

How the data were processed

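RNA-Seq counts of the 6 Stem and TGF-β libraries were analysed, with the 3 libraries of the third group entering the fit only to share the estimate of spread. The files deposited by the authors hold raw counts of reads for each Ensembl gene, not normalized, from ribosomal RNA–depleted total RNA. The paper names STAR and the submitters' processing notes name HISAT2 2.2.1, SAMtools 1.13 and HTSeq 0.11.3, both with GRCm39, so the aligner behind the counts is unsettled. How strand and multiply aligned reads were handled is not given in the sources used here, so genes that overlap or have near-identical copies are uncertain.

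Symbols were paired with 52083 of 55416 genes, which hold 98.1% of counts. Annotation classes and exon lengths came from GENCODE M21, which is on another build, so no gene coordinates are given, and promoter sequences are RefSeq's on GRCm38.p6. In R 4.3.3 with edgeR 4.0.16, genes were kept by filterByExpr, scaled by TMM and tested in 1 quasi-likelihood fit of 9 libraries with group as the only term and Benjamini-Hochberg adjustment, with a prior count of 0.125. Calls required an adjusted p under 0.05 and a log2 fold change beyond 1 or -1. The common dispersion was 0.00376. Floors of 3 counts are 2.93 to 3.26 normalized counts and cover counting error only. For a single gene, an exact permutation of 3 against 3 libraries allows no p below 0.1. On simulated counts with 200 changed genes of 14879, edgeR and DESeq2 1.42.0 each recovered 200 with 0 false calls. Every simulated gene had the same dispersion. The changed genes were drawn from the better-counted ones, and all changed by the same fold, up or down. Genes with few counts and smaller changes were thus not covered. The data themselves gave 3739 calls, many more than the genes altered in the simulation, so the accuracy of those calls was not tested.

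The gene lists, the rule for named genes and the comparison itself were chosen with earlier results of these data known. The rule named the 12 largest rises and falls whose groups did not overlap and whose normalized counts averaged 100 or more, the 12 largest gains and losses in counts, up to 2 rises and 2 falls per list, and genes the study names. Some of these genes are not reported here. Other list members, and genes named for their rank per length, were named after their values were seen. Lists are described by counts and medians only. Same-numbered replicates deviated together with correlations of 0.0955, 0.148 and 0.0147, so the numbers were not taken to pair the libraries. Alternatives were DESeq2, its size factors, total counts, TMM without the 10 most counted genes, no filter, a mean of at least 10 counts, the 6 libraries alone, a block for the replicate number, a prior count of 2, TREAT, dropping the fold minimum, and leaving out each library. Counts over protein-coding genes only, and without TEC and sense intronic loci, were added after seeing the data.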

Additional observations from a re-analysis of the deposited data

How the results depend on the processing

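The 3739 calls (1575 higher, 2164 lower) stayed within 1.5 times under DESeq2, other size factors, total counts, other filters, a prior count of 2, the 6 libraries alone and leaving out each library (3826 to 3902 calls). They were 2479 under TREAT against 2-fold (1390 lower) and 11158 without a fold minimum (5548 higher, 5610 lower). Among protein-coding genes alone, 1334 were lower. A replicate block gave 3735 calls over 9 libraries and 3575 over 6, and 2 of 3 numbers correlated best within themselves, as a hint only.

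Of 1312 list counts recomputed, 33 moved beyond 1.5 times, all from small numbers. Under total counts, rises became 1 for small leucine-rich proteoglycans, 0 for Hox genes, 2 for DNA replication, 7 for mitosis, 0 for ribosomal proteins, 3 for lysosome genes and 0 for BAF genes, and falls became 1 for the myofibroblast genes, 2 for glycolysis and hypoxia, and 1 for BAF genes. With a mean of at least 10 counts, rises became 1 for BMP targets and 5 for Notch and Hedgehog genes. With no filter, rises became 5 for interferon genes and 4 for histones. Leaving out 1 library at a time, falls ranged from 1 to 2 for ATF4 genes, 0 to 1 for BAF genes, 1 to 2 for glycolysis and 0 to 1 for the myofibroblast genes. Rises ranged from 0 to 1 for BAF genes, 0 to 2 for Hox genes, 1 to 2 for ribosomal proteins, 0 to 6 for interferon genes, 2 to 4 for histones and 1 to 2 for the proteoglycans.

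Over 240 genes named in the text, 3787 of 3825 values kept direction and call, and 15 genes gained or lost a call. Signs changed under total counts for Hsp90b1 (-0.063), Sox9 (-0.00216) and Tgfbr1 (-0.020). They changed for Lars2 under the block (0.73 over 9 libraries, 1.16 over 6), without the second Stem library (2.33) and without the third TGF-β library (0.13), with a range of -0.51 to 2.33 over libraries left out. Under total counts Smad7 (0.92), Pdgfrb (0.90), Aspn (0.96), Hoxb9 (0.94), Rpl41 (0.93), Smarcd3 (0.91) and Cxcl14 (0.89) were not called, and Id3 (-1.004), Timp2 (-1.10), Mrtfa (-1.08) and Slc2a1 (-1.07) were. The cause of these changes was not tested. Depth limits the genes at the floor of 3 counts, whose folds are lower bounds.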

Other observations

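LincRNAs, a class of long noncoding RNA, were lower in TGF-β more often than higher. Of 260 tested, 70 fell and 46 rose, 26.9% and 17.7% beside 14.5% and 10.6% of all genes. Among all genes under 100 mean normalized counts the shares were 31.2% and 17.5%, so level was not separated from class. TEC and sense intronic loci, of which 75.0% and 85.9% fell, were not taken out of those low genes. H19, an imprinted RNA of fetal tissues, had 2072, 2821 and 2470 normalized counts in Stem and 905, 716 and 887 in TGF-β. Xist, which coats the inactive X chromosome, had 1717, 2158 and 1801 normalized counts in Stem and 649.6, 812 and 639 in TGF-β. Airn, an imprinted RNA antisense to Igf2r that the annotation does not class as a lincRNA, had 95.3, 89.1 and 77.9 normalized counts in Stem and 32.4, 43.6 and 24.4 in TGF-β. For each of these 3 genes the TGF-β libraries lay below all Stem libraries. Neat1, a nuclear RNA of paraspeckles, had 6898, 6124 and 6046 normalized counts in Stem and 4739, 5140 and 5000 in TGF-β, a smaller difference that was not called. Processed pseudogenes, which are copies of spliced transcripts, went the other way, with 51 of 333 higher and 33 lower and a median log2 fold change of 0.38, and such copies share reads with their parent genes.

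The share of called genes differed between levels, with annotation classes not separated. Under 100 mean normalized counts 17.5% of 3952 genes were higher and 31.2% lower, and between 1000 and 10000 the shares were 6.97% and 6.64% of 5283 genes. At 10000 counts and over they were 13.7% and 10.8% of 600 genes.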
